A study of Caenorhabditis elegans with 4 samples.

Results

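Replication licensing is the step that prepares each stretch of DNA to be copied once, and only once, per cell cycle. The origin recognition complex binds DNA and, together with CDC-6 and CDT-1, loads the ring-shaped MCM helicase, made of the subunits MCM-2 to MCM-7, onto it. In S phase further loading is blocked: geminin (GMN-1) binds CDT-1, and CDT-2 directs CDT-1 to the CUL-4 ubiquitin ligase for degradation. In *C. elegans*, loss of CUL-4 is known to cause re-replication, and oocytes carry replication transcripts that the embryo uses later.

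The genes described here were the 6 MCM genes *mcm-2* to *mcm-7*, the loading factor genes *cdt-1* and *cdc-6*, and the genes *cdt-2* and *gmn-1* of factors that restrain CDT-1. They were chosen by name, with earlier results of these data known, and all 10 were found among the 15286 genes of the table. The samples were 4 RNA-seq libraries from dissected adult gonads of worms grown at 25 °C. H3.3K27M mutants carried the genotype his-72(uge40[K27M]) III, in which a CRISPR edit at the endogenous locus replaces a lysine of histone H3.3 with methionine, and wild type was the N2 strain, with 2 libraries of each. The mutant libraries are titled FAS43, whereas their strain label is FAS58, and the genotype label was used to group them. The extraction label names embryos and larvae at another temperature, whereas the titles and the study's methods name dissected gonads. The methods call the 2 libraries of a strain biological replicates. The *p*-values thus draw on the spread between 2 preparations of each strain, together with the spread estimated across genes.

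Total counts on genes were between 28298609 and 32957429 per library. Levels are given as CPM, the counts on a gene scaled to a common library size with TMM factors, and were tested over the 15261 genes that had at least 1 count. The edited gene *his-72* had 50.3 and 60.4 CPM in the mutant, against 64.2 and 81.8 CPM in wild type, which does not check the labels, since a substitution leaves its reads countable. All 10 germline and all 10 oocyte markers looked for had counts in every library. The 10 intestine markers summed to 15.8 and 20.9 CPM in the mutant, against 377.0 and 3455 CPM in wild type. Both wild-type libraries were thus above both mutant libraries, and wild-type replicate 2 also stood apart from wild-type replicate 1. Most of this sum came from the yolk protein genes *vit-1* to *vit-6*. In the test given below these 6 genes were called lower in the mutant, against 1.46% of all genes. Of the 10 markers, 0 were called higher. Of the 10 markers, 8 had both mutant libraries below both wild-type libraries and 2 had both above, the esterase gene *ges-1* and the intestinal transcription factor gene *elt-2*. The level of *elt-2* was near the floor of 3 counts, with 0.092 and 0.189 CPM in the mutant, against 0.068 and 0.035 CPM in wild type. Its order thus rests on a few reads. Fold changes without wild-type replicate 2 are given for the MCM genes, *cdc-6* and *cdt-1*. The summed level of the oocyte markers was 24773 and 22723 CPM in the mutant, against 33383 and 26705 CPM in wild type. Of these 10 genes, 0 were called, 1 had both mutant libraries below both wild-type libraries (*rme-2*, with 6982 and 5793 CPM in the mutant, against 12297 and 8831 CPM in wild type) and 1 had both above (*oma-1*). *ges-1*, *elt-2*, *rme-2* and *oma-1* were named after their values were seen.

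None of the licensing genes passed the test between the strains. A gene was called where its fold change exceeded 2 and its Benjamini-Hochberg adjusted *p*, from the quasi-likelihood test of edgeR over all genes, was under 0.05. Of the 10 genes, 0 were called higher in H3.3K27M gonads and 0 were called lower, while 4.43% of all genes were called higher, 1.46% lower and 5.89% in either direction. Among the 6038 autosomal genes whose mean reached 5 CPM, 7.80% were called, 1.08% as lower. The adjusted *p* alone also took in 0 of the 10, against 5.96% of all genes. At an unadjusted *p* under 0.05 there was 1 licensing gene, *gmn-1*, against 24.7% of all genes. The strains did not overlap in 1 of the 10, again *gmn-1*, against 56.8% of all genes. DESeq2 also called 0 of the 10, against 8.05% of all genes higher and 3.42% lower. The classic exact test of edgeR called 0 as well, against 7.12% higher and 3.34% lower. The median of the licensing genes' log2 fold changes was 0.03, beside -0.11 over all tested genes and -0.05 over autosomal genes. All 10 genes lie on autosomes, so none had a place on chromosome X, where the median was -1.06. With 2 libraries a strain, an exact permutation test of a single gene cannot go below a two-sided *p* of 0.333, so that the tests draw on the spread estimated across genes.

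**Figure D1:**
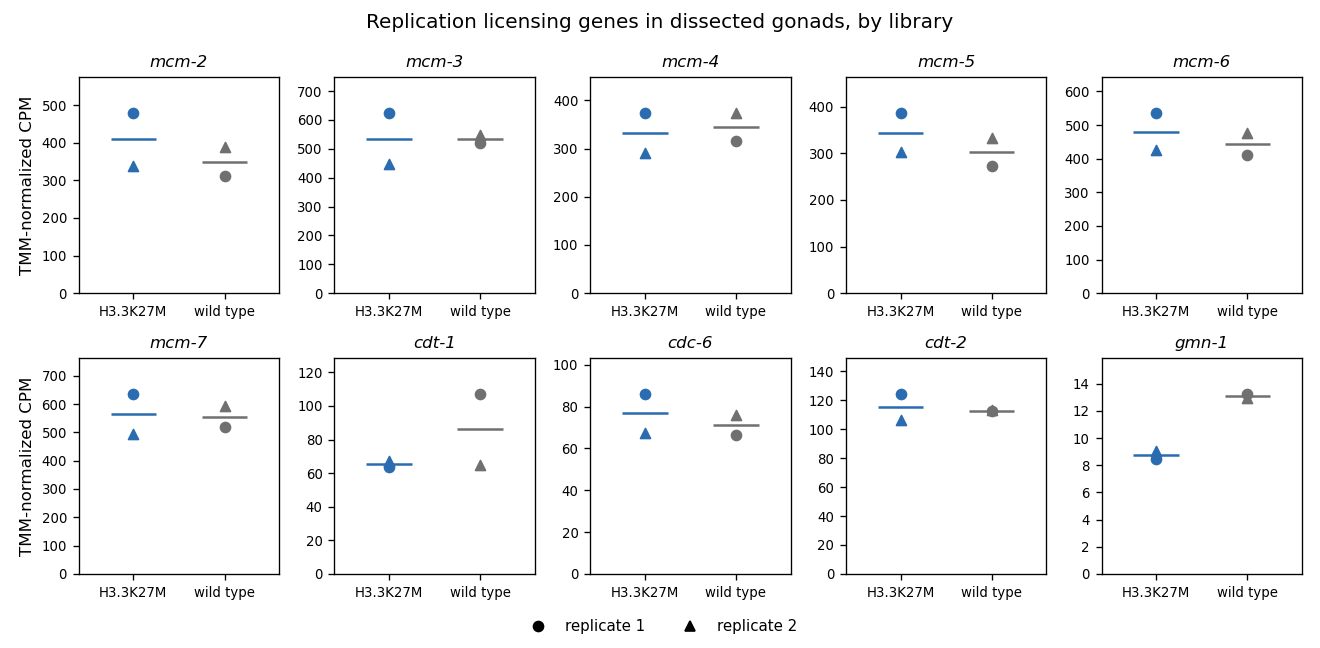
Level of each licensing gene in TMM-normalized CPM (vertical axes, from 0) in the H3.3K27M and wild-type libraries. Circles are replicate 1, triangles replicate 2 and lines the mean of each strain. The strains overlap in 9 of the 10 genes, and in *gmn-1* both mutant libraries lie below both wild-type libraries.

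The MCM genes encode the helicase that unwinds DNA at the fork. *mcm-2* (chromosome II, 12001509 to 12006625, WBcel235) had 479 and 339 CPM in the mutant, against 311 and 389 CPM in wild type. *mcm-3* (chromosome V, 15056719 to 15059599) had 623 and 446 CPM in the mutant, against 522 and 546 CPM in wild type. *mcm-4* (chromosome I, 2318291 to 2321817) had 373.3 and 291 CPM in the mutant, against 315 and 373.2 CPM in wild type. In each of these genes mutant replicate 1 was the highest library, in *mcm-4* level with wild-type replicate 2, and mutant replicate 2 was lower than wild-type replicate 2. *mcm-5* (chromosome III, 4288264 to 4291266) had 386 and 302 CPM in the mutant, against 273 and 332 CPM in wild type. *mcm-6* (chromosome III, 9794367 to 9798644) had 535 and 426 CPM in the mutant, against 409.6 and 476 CPM in wild type. *mcm-7* (chromosome V, 4347166 to 4349768) had 636 and 495 CPM in the mutant, against 517 and 594 CPM in wild type. The strains thus overlapped in all 6 MCM genes.

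The difference between replicates was shared across the 6 subunits. In all 6, mutant replicate 1 was the highest of the 4 libraries, and it exceeded mutant replicate 2 by 1.26-fold to 1.41-fold. In all 6, wild-type replicate 2 was above wild-type replicate 1, by 0.07 to 0.32 on the log2 scale. In 3 of the 6, both wild-type libraries lay between the mutant libraries. The median log2 ratio of mutant replicate 1 over mutant replicate 2 was 0.36 for the MCM genes, beside 0.13 over the same 6038 autosomal genes, of which the central 80% lay between -0.42 and 0.52. For wild-type replicate 1 over wild-type replicate 2 the median was -0.23 for the MCM genes, beside -0.04 over these autosomal genes. The central 80% of the latter lay between -0.38 and 0.52, a range that held all 6 MCM genes. *cdc-6* and *cdt-2* also had their highest level in mutant replicate 1, whereas *cdt-1* and *gmn-1* had theirs in wild-type replicate 1. The replicates carry no date or batch label, so that these differences could not be set against a batch.

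The fold changes of all 6 MCM genes were below their standard errors on the log2 scale. *mcm-2* had the largest, 0.23 on the log2 scale, with an error of 0.24 and a 95% interval of -0.35 to 0.80 (edgeR quasi-likelihood, adjusted *p* = 0.579). Next came *mcm-5* with 0.19 and *mcm-6* with 0.12, while *mcm-7* and *mcm-3* lay at 0.03 and 0.0017, and *mcm-4* at -0.05. Over the 6 genes the 95% intervals reached from 0.682-fold to 1.74-fold of the wild-type level, so a change of 2-fold in either direction lay outside each of them. Of the 10 licensing genes, 8 had such an interval, as had 66.5% of the 6038 autosomal genes. These intervals do not show that the levels are the same. These values depended on single libraries. Without mutant replicate 1, the log2 fold change of *mcm-2* was 0.0098 and that of *mcm-5* 0.05, against 0.45 and 0.35 when mutant replicate 2 was left out. The fit that left out wild-type replicate 2 gave 0.40 for *mcm-2*, 0.04 for *mcm-3*, 0.08 for *mcm-4*, 0.33 for *mcm-5*, 0.23 for *mcm-6* and 0.13 for *mcm-7*, so that *mcm-4* changed sign. The sign of *mcm-3* was not fixed, with -0.02 when the TMM factors came from autosomal genes alone.

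**Figure D2:**
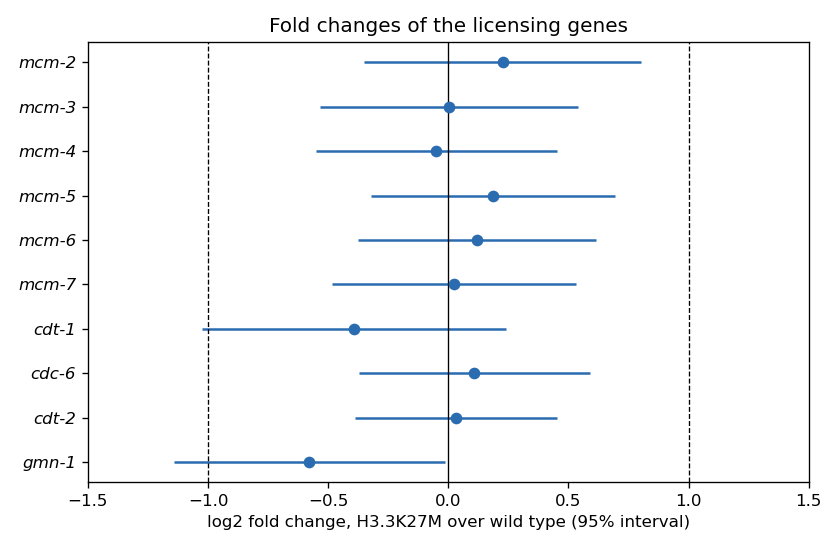
Log2 fold change of each licensing gene, H3.3K27M over wild type (horizontal axis), with its 95% interval from the quasi-likelihood fit. Dashed lines mark a 2-fold change. The intervals of *cdt-1* and *gmn-1* cross the lower dashed line, and that of *gmn-1*, from -1.14 to -0.01, does not reach 0.

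*cdc-6* encodes the ATPase that brings the helicase to the origin recognition complex. The gene (chromosome I, 4268070 to 4270287) had 86.0 and 67.5 CPM in the mutant, against 66.3 and 76.1 CPM in wild type. The difference was 0.11 on the log2 scale, with a 95% interval of -0.37 to 0.59 (edgeR quasi-likelihood, adjusted *p* = 0.757). It was 0.21 without wild-type replicate 2. Within each library *cdc-6* kept a nearly constant ratio to the MCM genes. Per kb of exon it had 0.251 and 0.259 of the mean MCM level in the mutant, against 0.250 and 0.248 in wild type. The strains thus did not overlap in this ratio, by a small margin. It was not tested, and no share over all genes was computed for such ratios.

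*cdt-1* encodes the licensing factor whose supply is limited in S phase. The gene (chromosome I, 3223160 to 3228104) had 63.6 and 67.4 CPM in the mutant, against 107.1 and 65.0 CPM in wild type. Only wild-type replicate 1 was high, and the other three libraries were close together. The difference was -0.39 on the log2 scale, with an error of 0.26 and a 95% interval of -1.03 to 0.24 (edgeR quasi-likelihood, adjusted *p* = 0.387). It turned to 0.05 without wild-type replicate 1, and was -0.71 without wild-type replicate 2, so that the sign depended on which wild-type library was kept.

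*cdt-2* encodes the adaptor through which the CUL-4 ligase recognizes CDT-1. The gene (chromosome V, 14987547 to 14991126) had 124.3 and 106.4 CPM in the mutant, against 112.3 and 113.5 CPM in wild type, so that both wild-type libraries lay between the mutant ones. The difference was 0.03 on the log2 scale, with a 95% interval of -0.39 to 0.45 (edgeR quasi-likelihood, adjusted *p* = 0.925). Its standard error, 0.17, was the smallest of the 10 genes.

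*gmn-1*, the worm geminin gene, was the only licensing gene whose strains did not overlap. It lies on chromosome III, from 12223896 to 12225331, and its counts were 277 and 288 in mutant gonads, against 388 and 372 in wild type, or 8.78 ± 0.414 CPM in the mutant and 13.1 ± 0.196 CPM in wild type (SD, n = 2 each). Non-overlapping strains with lower mutant values were common, at 32.7% of all genes and 30.7% of the 6038 autosomal genes. The difference was -0.58 on the log2 scale, or 0.670-fold of wild type, with an error of 0.23 and a 95% interval of -1.14 to -0.01. It did not pass the test (edgeR quasi-likelihood, unadjusted *p* = 0.0458, adjusted *p* = 0.193), and an unadjusted *p* under 0.05 with lower mutant values was found for 12.4% of all genes. Leaving out any 1 library kept the value between -0.63 and -0.48. Since these are bulk samples, fewer cells of a type and less RNA per cell cannot be told apart. The summed oocyte markers were also lower in both mutant libraries, with *rme-2* as the only one of the 10 without overlap and lower. The germline markers summed to 5397 and 4672 CPM in the mutant, against 6376 and 5103 CPM in wild type, so that the strains overlapped. The part of these markers in the *gmn-1* values was not tested.

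The annotated neighbours bear on how these counts can be read. Of the 10 genes, 7 overlap a gene on the opposite strand, by 4 to 73 exonic bases, and 0 overlap a gene on their own strand. The partner of *gmn-1* is *gphr-1*, which shares 39 bases, or 3.05% of the *gmn-1* exons, and is far more abundant, with 155.4 and 103.1 CPM in the mutant, against 269.3 and 195.3 CPM in wild type. Its log2 fold change of -0.85 did not pass the test (edgeR quasi-likelihood, adjusted *p* = 0.133), and lay in the same direction as that of *gmn-1*. The library kit marks strand, but the strand setting of the counting is not given in the sources used here, and the part of *gphr-1* reads in the *gmn-1* counts was not tested. The other partners reached at most 7.85 CPM, except *ekl-7*, which shares 15 bases with *mcm-4* and had between 50.1 and 65.6 CPM.

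Levels can be compared between genes per kb of merged exons. The MCM genes were among the most abundant transcripts of the gonad, between the 95.03rd and the 97.3rd percentile of 15134 genes, with means over the 4 libraries between 129.3 CPM per kb for *mcm-4* and 228.8 CPM per kb for *mcm-7*, a 1.77-fold range. *mcm-7* was above *mcm-3*, *mcm-3* above *mcm-6*, and *mcm-6* above *mcm-2* in each of the 4 libraries. *mcm-2*, *mcm-5* and *mcm-4*, at 134.2, 133.8 and 129.3 CPM per kb, had no order shared by all 4 libraries. Each neighbouring pair had one order in 2 libraries and the other in 2. For *mcm-5* over *mcm-4* the split followed the strains, with ratios of 1.119 and 1.123 in the mutant, against 0.938 and 0.963 in wild type. *mcm-2* was likewise above *mcm-4* in both mutant libraries and below it in both wild-type libraries. These orders were not tested. Below the MCM genes came *cdt-2* with 47.6, *cdc-6* with 42.2 and *cdt-1* with 28.6 CPM per kb. *cdt-2* exceeded *cdc-6* in all 4 libraries, and *cdc-6* exceeded *cdt-1* in 3, with wild-type replicate 1 as the exception. *gmn-1* was the lowest of the 10 at 8.55 CPM per kb, on the 64.0th percentile, and the median MCM level was 18.3-fold higher.

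**Figure D3:**
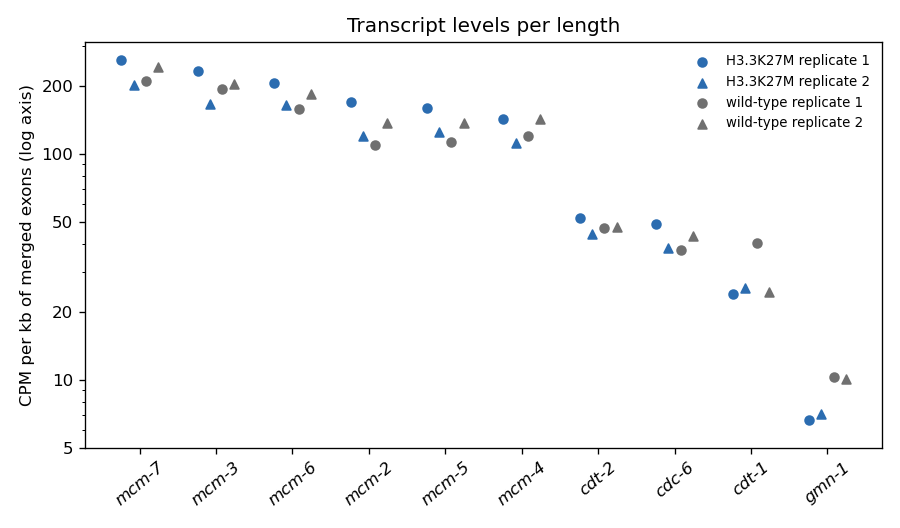
Level of each licensing gene in CPM per kb of merged exons (vertical axis, logarithmic) in each H3.3K27M and wild-type library, ordered by the mean over the 4 libraries. The 6 MCM genes lie together at the top, and *gmn-1* lies lowest in every library.

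The helicase subunits made up similar shares in all libraries, with small differences between the strains. Of the summed MCM level per kb, *mcm-7* made up 22.2% and 22.7% in the mutant, against 23.3% and 23.1% in wild type, and *mcm-2* made up 14.5% and 13.5% in the mutant, against 12.1% and 13.1% in wild type. No subunit's share differed by more than 1.36 percentage points between the strain means. The strains nevertheless did not overlap in 5 of the 6 shares, with *mcm-2*, *mcm-5* and *mcm-6* higher in the mutant and *mcm-4* and *mcm-7* lower. Such ratios within a library do not depend on the scaling between libraries. The ratio of *cdt-1* to *gmn-1* per kb, the licensing factor over its inhibitor, was 3.62 and 3.59 in the mutant, against 3.91 and 2.42 in wild type, so that the strains overlapped. The ratio of *gmn-1* to the mean MCM level was 0.0340 and 0.0478 in the mutant, against 0.0684 and 0.0580 in wild type, without overlap. None of these ratios was tested, and the levels of 56.8% of all genes did not overlap either. That figure is for levels between libraries, and none was computed for ratios within a library. The 6 MCM shares are parts of 1 sum in each library, so they are not independent of each other.

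The other replication genes were taken from 4 lists with 52 genes, of which 51 were tested. None was called in either direction (0 of 51), against 5.89% of all genes. DESeq2 called none either, against 8.05% of all genes higher and 3.42% lower. The classic exact test also called none, against 7.12% higher and 3.34% lower. At an unadjusted *p* under 0.05 there were 5 with lower mutant values and 1 with higher, against 12.4% and 12.3% of all genes. The strains did not overlap in 16 with lower mutant values and 6 with higher, against 32.7% and 24.1% of all genes. Their median log2 fold change was -0.11, with 34 genes below 0 and 17 above. The lowest adjusted *p* among them was 0.0927, for *orc-3*.

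Among the 5 origin recognition genes, which encode the complex that marks where the helicase is loaded, 4 had both mutant libraries below both wild-type libraries, against 32.7% of all genes, and the median log2 fold change was -0.47. This median was -0.29 without wild-type replicate 1 and -0.31 without mutant replicate 2, against -0.64 without wild-type replicate 2 and -0.53 without mutant replicate 1. *orc-3* had 78.6 and 66.6 CPM in the mutant, against 127.5 and 109.1 CPM in wild type, or -0.70 on the log2 scale with an error of 0.19 (edgeR quasi-likelihood, adjusted *p* = 0.0927). DESeq2 and the classic exact test gave it adjusted *p* values of 0.0213 and 0.0423, with a fold change under 2, and over all alternative fits of the 4 libraries its adjusted *p* lay between 0.0213 and 0.144. The values of *orc-1*, *orc-4* and *orc-5*, named here after they were seen, were -0.44, -0.47 and -0.50 (edgeR quasi-likelihood, adjusted *p* = 0.279, 0.187 and 0.261). *orc-2*, also named after its values were seen, was the exception, with 67.8 and 67.1 CPM in the mutant, against 67.1 and 59.4 CPM in wild type.

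Of the 9 tested genes that turn the loaded helicase into an active one, 5 had both mutant libraries below both wild-type libraries, against 32.7% of all genes, and the median log2 fold change was -0.21. This median was -0.46 without mutant replicate 1 and -0.13 without wild-type replicate 2. *psf-3*, a subunit of the GINS complex that joins the MCM ring, had 16.7 and 15.5 CPM in the mutant, against 27.2 and 24.7 CPM in wild type, or -0.69 on the log2 scale with an error of 0.20 (edgeR quasi-likelihood, adjusted *p* = 0.113). All 4 GINS genes, a group formed after the values were seen, were without overlap and lower in the mutant, again against 32.7% of all genes, with -0.50 for *psf-1*, -0.63 for *sld-5* and -0.93 for *psf-2*. *psf-2* had only 21 and 11 counts in the mutant, against 32 and 23 counts in wild type. None passed the test. The summed oocyte markers were lower in both mutant libraries, with *rme-2* as the only one of the 10 without overlap and lower, and their part in the values of these genes and the origin recognition genes was not tested.

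The 13 genes of the ligases and the segregase that remove CDT-1 and the MCM helicase had a median log2 fold change of -0.10, which lay between -0.06 and -0.0059 when single libraries were left out. *cul-4*, the scaffold of the ligase that degrades CDT-1, had 144.1 and 130.0 CPM in the mutant, against 94.6 and 105.5 CPM in wild type, or 0.45 on the log2 scale with an error of 0.17 (edgeR quasi-likelihood, adjusted *p* = 0.177). It was the only 1 of the 13 genes whose mutant libraries both exceeded both wild-type libraries, against 24.1% of all genes. In 3 of the 13 both mutant libraries lay below, against 32.7% of all genes. *elc-1*, named after its values were seen, was near the floor of 3 counts, with 4 and 3 counts in the mutant, against 10 and 11 counts in wild type. The 24 genes of the replication fork had a median log2 fold change of -0.06, which turned to 0.06 without mutant replicate 2 and to 0.07 without wild-type replicate 1. Of these 24, 5 had both mutant libraries above both wild-type libraries, against 24.1% of all genes. In 4 both lay below, against 32.7% of all genes. *pri-2*, a primase subunit gene, had the smallest *p* of the 24, with 262.7 and 227.9 CPM in the mutant, against 409.6 and 329.0 CPM in wild type, or -0.59 on the log2 scale (edgeR quasi-likelihood, adjusted *p* = 0.144).

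**Figure D4:**
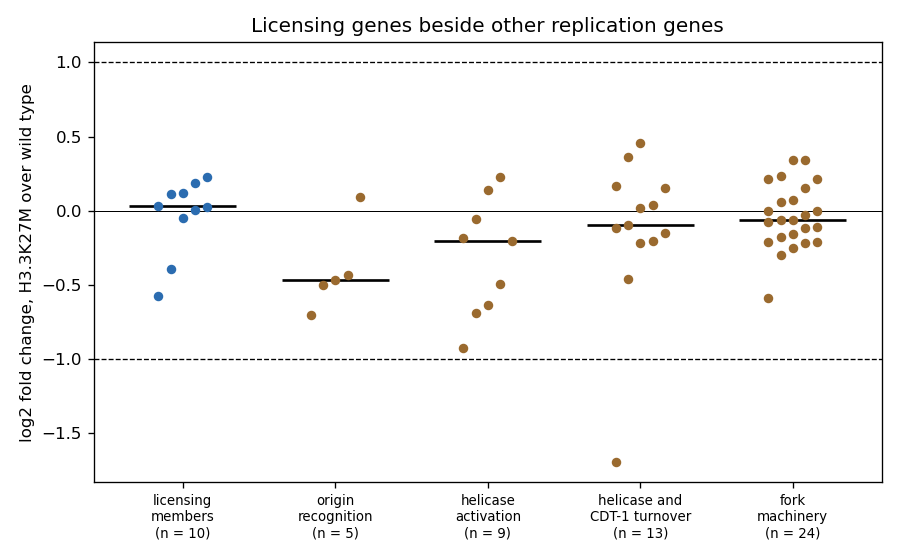
Log2 fold change, H3.3K27M over wild type (vertical axis), of the 10 licensing genes (blue) and of the genes of 4 other replication lists (brown). Each point is a gene, black lines are medians and dashed lines mark a 2-fold change. The point far below the others is *elc-1*, and 4 of the 5 origin recognition genes lie between -0.70 and -0.44.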

How the data were processed

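RNA from dissected gonads was sequenced after a stranded mRNA library preparation, in 2 biological replicates per strain. According to the methods and the submitters' processing notes, the authors mapped reads to WBcel235 with TopHat2 2.0.13, and HTSeq 0.6.1 and edgeR 3.10.5 are named. The deposited table gives whole-number counts for each gene and library, before any normalization. It also holds normalized counts (a library-scaled signal), and the authors' own comparison as log2 values and p-values. None of these further columns was used.

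The model was fitted to the raw counts of 15261 genes in edgeR 4.0.16 under R 4.3.3 (TMM factors, glmQLFit, glmQLFTest), and held only strain. Standard errors are the absolute log2 fold change over the square root of F, and 95% intervals use the t quantile at the degrees of freedom of the fit. For positions and exon lengths, 15159 of the 15286 genes were found in the WBcel235 annotation of Ensembl (release 115). Of the listed replication genes, 4 were matched through current symbols, and *sld-3* was not analysed here. The script was tested on simulated counts. Named genes were the 10 licensing genes, *his-72*, and in each list without a call the gene with the smallest p. The genes *vit-1* to *vit-6* were to be named as intestine markers where a library stood apart. The overlapping partners *gphr-1* and *ekl-7* were not in this plan and were named with their values seen. Other genes are marked in the text as named after their values were seen. The oocyte, germline and intestine markers were lists of 10 genes each. Sperm, muscle, somatic gonad, hypodermis and neuron marker lists were also fixed, and their part in the results was not tested. They summed to 85.4 and 122.6 (sperm), 191.4 and 252.5 (body wall muscle), 1341 and 1333 (somatic gonad), 147.8 and 59.1 (hypodermis) and 96.6 and 107.2 CPM (neuron) in the mutant, against 28.1 and 10.1, 380.7 and 203.1, 1090 and 1060, 74.2 and 93.2, and 60.8 and 71.0 CPM in wild type. Most of the sperm sum came from 1 gene, *spe-41*, named after its values were seen. It had 77.2 and 102.5 CPM in the mutant, against 22.9 and 5.61 CPM in wild type. Of the 10 sperm markers, 6 had a log2 fold change above 0 and 4 below, and 0 were called. Most of the somatic gonad sum came from *fln-1*, with 1048 and 1005 CPM in the mutant, against 790 and 835 CPM in wild type. Of the 10 somatic gonad markers, 4 lay above 0 and 6 below, with *cle-1* called higher and *plc-1* lower. Of the 8 neuron markers, 2 were called higher, *unc-104* and *ric-19*, against 4.43% of all genes. Of the muscle and hypodermis markers, 0 were called. These genes were also named after their values were seen. Members and lists were chosen with earlier results of these data known. Total counts were 28298609 to 32957429 per library, and *gmn-1*, with the fewest counts of the 10 genes, had 277 to 388. The alternatives were RLE factors, TMM factors from autosomal genes, DESeq2 1.42.0, filterByExpr, a replicate block, longest-transcript lengths, edgeR's classic exact test and its legacy quasi-likelihood method, no fold threshold, and leaving out each library. No sequences are shown.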

Additional observations from a re-analysis of the deposited data

How the results depend on the processing

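The count of 0 licensing genes and 0 other replication genes called in either direction held under each of the 7 alternative fits of the 4 libraries, under the adjusted p alone, and without each library. Leaving out a library says little, since the share of all tested genes called higher then lay between 0% and 0.664% and lower between 0% and 0.112%, against 4.43% and 1.46%. It was 0% in both directions without H3.3K27M replicate 1 or without wild-type replicate 2. For all genes, DESeq2 gave 8.05% higher and 3.42% lower (1228 and 522 genes, against 676 and 223), the classic exact test 7.12% and 3.34% (1086 and 510), and the replicate block 2.44% and 0.596% (372 and 91). The replicate numbers share no stated origin, and the deviations of same-numbered libraries had a correlation of -0.00043, so the block was not treated as a pairing. It changed no call among the licensing genes. Of 70 values of the licensing genes under alternative fits, 68 kept their sign, and the lowest adjusted p was 0.177. The exceptions were both *mcm-3*, with -0.023 under TMM from autosomal genes and -0.018 under the replicate block. Without 1 library, 10 of 40 values changed sign. The ranges were -0.21 to 0.22 for *mcm-3*, -0.19 to 0.12 for *mcm-4*, -0.00067 to 0.27 for *mcm-6*, -0.11 to 0.19 for *mcm-7*, -0.71 to 0.048 for *cdt-1*, -0.023 to 0.27 for *cdc-6* and -0.033 to 0.14 for *cdt-2*. For *mcm-2* and *mcm-5*, which kept their sign, they were 0.0098 to 0.45 and 0.05 to 0.35. The cause was not tested. The median over the licensing genes lay between -0.07 and 0.21, that of the helicase activation genes was -0.46 without H3.3K27M replicate 1, and that of the fork genes changed sign without H3.3K27M replicate 2 or wild-type replicate 1. With exon length taken from the longest transcript, or with RLE factors, each level per kb moved by less than its spread.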
